A study of Mus musculus with 18 samples.

Results

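Mouse bone marrow-derived macrophages given lipopolysaccharide (LPS) for 4 h were compared with cells of the same genotype given LPS for 2 h. The comparison used 6 of the 18 arrays of the series: 3 of Wbp7+/- cells (HET) at 4 h and 3 of Wbp7+/- cells at 2 h, chosen by their titles. The 3 untreated HET arrays served to say which genes had already moved at 2 h. The 9 arrays of Wbp7-/- cells (KO, untreated, 2 h and 4 h, 3 arrays each) served for the difference between genotypes. All 18 arrays were fitted together, so that the spread behind each p for HET cells comes also from the untreated and KO arrays. The mice were C57BL/6 (94%) mixed with 129/Ola (6%). Their marrow was grown with L929-conditioned medium, a source of the growth factor Csf1, and the macrophages were used on day 7. LPS was given at 10 ug/ml. Every HET culture carries 1 disrupted copy of Wbp7, a gene also named Kmt2b whose product methylates lysine 4 of histone H3, and no array of cells with both copies intact was used here. The labels do not say whether replicates came from separate mice, so that the tests measure the spread between these arrays, which may be technical in part.

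LPS, a component of the outer membrane of Gram-negative bacteria, is sensed by Tlr4 with its co-receptors Cd14 and Md-2 (Ly96). Signals through the adaptor MyD88 turn on NF-kB and MAP kinases within minutes, and signals through TRIF turn on Irf3 and the gene for interferon beta (Ifnb1). Genes that need no newly made protein come up first and are often switched off again by feedback inhibitors and by decay of their messenger RNA. Genes that need new factors, or interferon beta acting back on the cells, come up later. The interval between 2 h and 4 h therefore lies where early genes can decline while later ones still climb, and the comparison asked which genes did which.

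Values are log2 signals of 19475 genes, and changes are log2 differences, 4 h minus 2 h, in which 1 is a 2-fold change. They are given with the standard error (SE) of a linear model in which arrays of the same replicate number and genotype form a block. A gene is said to have risen, fallen, changed or passed where its adjusted p over all genes was under 0.05. Values of 3 arrays are given in the order of replicates 1, 2 and 3. These are cultures measured in bulk, so that fewer cells of a type and less RNA per cell cannot be told apart.

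The HET arrays of replicate 1 stood apart from the others at both times. Gene by gene, they differed from replicates 2 and 3 of the same time with an SD of 0.472 to 0.531, while replicates 2 and 3 differed from each other with an SD of 0.261 at 4 h and 0.279 at 2 h. They held far less signal for cell cycle genes: the median of a list of 45 was 8.23 in replicate 1, against 10.40 and 10.41 in the others at 4 h, and 8.43, against 10.93 and 10.92, at 2 h. The pairs nevertheless moved alike between 2 h and 4 h, with correlations across genes of 0.597 to 0.797 between their differences. Counts over gene lists are therefore given with replicate 1 and, beside them, without it. Kmt2b, the targeted gene, stood at 10.32, 10.05 and 10.14 at 4 h, against 10.69, 10.96 and 10.32 at 2 h, a difference of −0.49 (SE 0.14). The sources used here do not say which part of the transcript the probe set covers, so its signal (means of 10.08 at 4 h and 10.60 at 2 h in KO cells) does not check the labels. Its fall did not pass without HET replicate 2 (−0.28) or without KO replicate 3 (−0.49).

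Between 2 h and 4 h, 1508 genes rose (7.74% of those tested) and 2142 fell (11.0%), 18.7% in all. Of these 3650 genes, 3614 moved the same way in all 3 pairs. The arrays at 4 h and 2 h did not overlap for 2134 of them (58.5%), against 16.9% of all genes. The calls rest on the same pairs and arrays, so that both counts are favoured by the selection and are no separate support. A change of at least 2-fold was found for 416 genes (2.14%), of which 242 rose (1.24%) and 174 fell (0.893%), so that the larger movements were more often upward although falls were more numerous. Without the replicate block 1594 genes passed, all of them among the 3650. Without HET replicate 1, 1397 rose (7.17%) and 2473 fell (12.7%), and 3008 of the 3650 passed again. Without HET replicate 2, 2200 genes passed, and with the 9 HET arrays only, 1943 did.

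The 5 largest falls were in genes whose mean at 2 h lay below that of untreated cells. Pde3b, which encodes a phosphodiesterase that breaks down cyclic AMP, stood at 7.31, 7.69 and 7.00 at 4 h, against 11.06, 10.03 and 9.53 at 2 h, a change of −2.87 (SE 0.273, adjusted p = 3.1e-05). Its lowest array at 2 h lay more than 1 log2 unit above its highest array at 4 h. Mtss1, a membrane and actin scaffold, fell by amounts closer to each other, at 8.80, 9.06 and 8.87 at 4 h, against 11.32, 11.31 and 10.83 at 2 h (−2.24, SE 0.151). Gnl3, which encodes the nucleolar GTP-binding protein nucleostemin, was nearly equal in the arrays at the later time, with 8.17, 8.19 and 8.22 at 4 h, against 9.99, 10.52 and 10.51 at 2 h (−2.15, SE 0.163). Gcnt1, a glycosyltransferase that branches O-linked sugar chains, had begun to fall by 2 h and went on, with 12.35, 12.11 and 12.11 untreated, 10.29, 11.09 and 10.74 at 2 h, and 7.84, 8.64 and 8.70 at 4 h (−2.32, SE 0.216). Plau, the urokinase plasminogen activator, fell by 2.12 (SE 0.229) and Tgfbr1, the type I receptor for TGF-beta, by 1.76 (SE 0.098). The rule for naming left out genes whose arrays overlapped. The others among the 15 largest falls were Pald1, Egr2, Mvb12b, Etv5, Cxcl1, Rrs1, Prkag2, Slco4a1 and Sgms1, with changes of −1.99 to −1.67.

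The strongest rises mixed interferon-induced genes with others. Gbp4, a guanylate-binding GTPase of cell-autonomous defence, stood at 13.07, 12.39 and 11.77 at 4 h, against 11.04, 7.96 and 8.42 at 2 h, a change of 3.27 (SE 0.346, adjusted p = 5.39e-05). Replicate 1 was already high at 2 h, so that its pair moved least, by 2.04, against 4.42 and 3.35. Lipg, the endothelial lipase, stood at 12.91, 12 and 11.07 at 4 h, against 10.41, 8.20 and 8.53 at 2 h (2.95, SE 0.388). Il23r, a subunit of the receptor for interleukin 23, stood at 6.29, 6.16 and 6.03 untreated, 7.01, 6.43 and 6.88 at 2 h, and 9.44, 8.89 and 9.17 at 4 h (2.39, SE 0.135, adjusted p = 1.02e-06). Its signal at 2 h lay near or below the lower quartile of signal of the arrays (6.99), where array signals are compressed, so that the size of its rise is uncertain. Hhex, a homeobox transcription factor, rose by 2.41 (SE 0.275) after a fall at 2 h. Gnb4, a beta subunit of heterotrimeric G proteins, stood at 11.24, 11.23 and 10.80 at 4 h, against 9.22, 8.67 and 8.72 at 2 h (2.22, SE 0.185). The others among the 15 largest rises were BC023105, Gbp9, Gbp11, Slco3a1, Sntb1, Zeb1, Tnfsf8, Iigp1, Tnc and Slfn4, with changes of 2.31 to 2.03. Members of the Gbp, Iigp, Slfn, Ifit and Trim30 families have closely similar relatives in the mouse, and the sources used here do not say whether their probes separate them.

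Genes were sorted by what they had done before. Of 521 genes at least 1 log2 unit above untreated at 2 h, 166 (31.9%) rose further and 68 (13.1%) fell, while 287 (55.1%) did not pass in either direction. Genes that rose further are called still rising here and those that fell transient. Both sortings use the arrays at 2 h in each step, so that these counts have no test: an array that is high by chance at 2 h raises the first step and lowers the second. Of the 58 genes at least 3 log2 units above untreated at 2 h, 17 rose further, 5 fell and 36 did not pass. Of 329 genes at least 1 log2 unit below untreated at 2 h, 110 fell further, 26 rose and 193 did not pass. A further 353 genes, called late here, lay within 1 of untreated at 2 h, rose, and reached at least 1 above untreated at 4 h, and 616 did the same downward (late fall). Without HET replicate 1, 62 genes were transient and 150 still rising. Without the replicate block the counts were 37 and 79, and without HET replicate 2, 45 genes were transient.

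**Figure D1:**
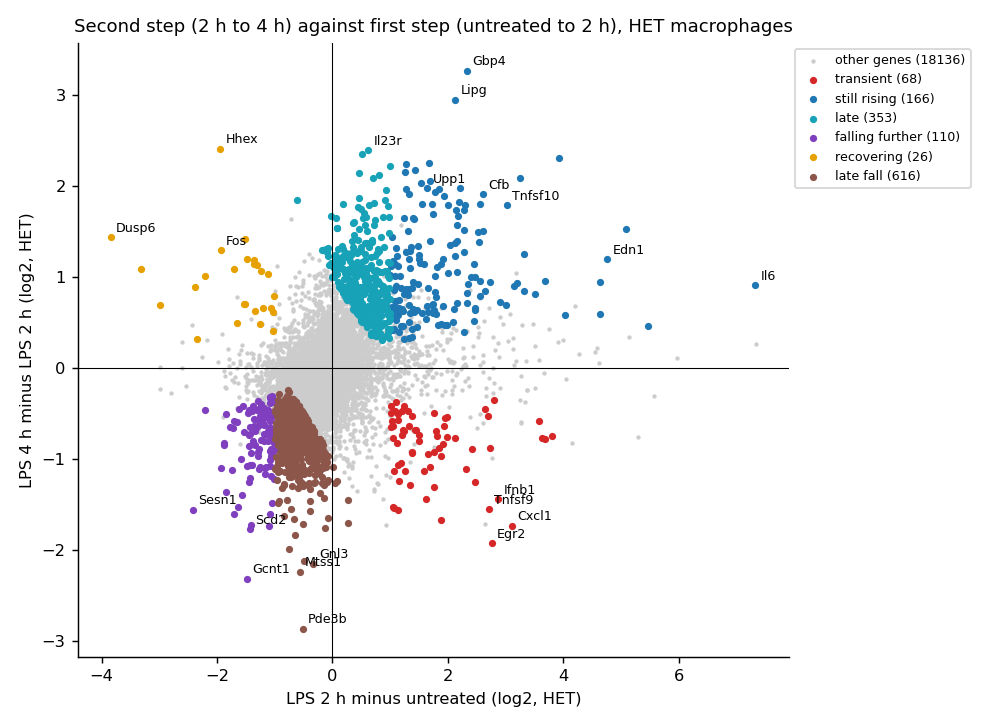
Change from untreated to 2 h (horizontal, log2) against change from 2 h to 4 h (vertical, log2) for 19475 genes in HET cells, means of 3 arrays, with the 6 classes of time course in colour and their numbers of genes in the legend. Still rising (166) and late (353) genes lie above the horizontal line, and transient (68), falling further (110) and late fall (616) genes below it.

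The 68 transient genes had a median step of 1.50 up to 2 h and of −0.77 from there to 4 h. Most did not return fully: 63 were still above untreated at 4 h, and 45 were within 1 log2 unit of it. In 67 all 3 pairs fell, and in 43 the arrays at the 2 times did not overlap. Among all genes that passed, 58.5% did not overlap, and among all genes 16.9%. Members had to pass first, which favours both counts. Egr2, a zinc finger factor of the immediate-early type, stood at 9.14, 7.89 and 7.64 untreated, 10.79, 11.78 and 10.38 at 2 h, and 8.95, 9.43 and 8.79 at 4 h. It fell by 1.93 (SE 0.318), and in replicate 1 it ended below its untreated value. Cxcl1, a chemokine that draws neutrophils, stood at 8.65, 8.26 and 8.57 untreated, 11.93, 11.73 and 11.15 at 2 h, and 9.74, 10.23 and 9.63 at 4 h (−1.74, SE 0.197, adjusted p = 7.97e-05). All 3 arrays at 4 h lay below all 3 at 2 h and above all 3 untreated ones. Ifnb1 stood at 6.45, 6.04 and 6.13 untreated, 9.80, 8.78 and 8.68 at 2 h, and 7.38, 7.94 and 7.61 at 4 h (−1.44, SE 0.234, adjusted p = 0.000926). Replicate 1 had the highest Ifnb1 signal at 2 h and the lowest at 4 h, and without it the change was −0.95 and passed. The others of the 8 largest were Sgms1, which makes sphingomyelin, the small GTPases Rhob and Rhof, Tnfsf9, the ligand of the receptor 4-1BB, and Tbc1d2b, with falls of 1.67 to 1.53.

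Still rising genes had a median of 1.66 up to 2 h and of 0.92 after it. Of these 166 genes, 101 had no overlap between the arrays of the 2 times. The share was 58.5% among all genes that passed and 16.9% among all genes. Gbp4, Lipg, BC023105, Il2ra, Gbp9, Gbp11, Slco3a1 and Iigp1 led them. Il2ra, the alpha chain of the interleukin 2 receptor, stood at 12.50, 10.38 and 8.55 at 4 h, against 10.08, 7.41 and 7.18 at 2 h and so overlapped widely. It rose by 2.25 (SE 0.551), and by 1.89 without HET replicate 2, where it did not pass. Late genes rose by a median of 0.89, after 0.54 up to 2 h, and 267 of 353 had no overlap, to be read against the same shares. Il23r, Scimp, Gnb4, Sntb1, Zeb1, Tnfsf8, Ifit1bl2 and Cysltr2 led them. Scimp, an adaptor of Toll-like receptors, stood at 12.26, 11.11 and 10.13 at 4 h, against 10.16, 8.20 and 8.08 at 2 h (2.35, SE 0.191), with the same rank of the replicates at both times. Zeb1, a zinc finger repressor, stood at 11.36, 10.88 and 10.39 at 4 h, against 8.98, 9.14 and 8.13 at 2 h (2.12, SE 0.156). Tnfsf8, the ligand of CD30, stood at 11.67, 10.96 and 10.85 at 4 h, against 9.36, 8.73 and 9.12 at 2 h (2.09, SE 0.167).

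The 26 recovering genes had fallen by a median of 1.49 up to 2 h and then rose by a median of 0.95. At 4 h 19 of them were within 1 log2 unit of untreated, and 1 was above it. Hhex stood at 10.57, 10.08 and 10.09 untreated, 8.14, 7.62 and 9.15 at 2 h, and 10.31, 10.76 and 11.06 at 4 h, so that 2 of 3 replicates ended above where they had begun. Arhgap25, a GTPase-activating protein for Rac, stood at 10.48, 10.53 and 10.64 at 4 h, against 9.35, 8.69 and 9.38 at 2 h (1.41, SE 0.136). Dusp6, a phosphatase of the MAP kinase Erk, had dropped furthest, with 11.87, 11.93 and 11.88 untreated, 7.73, 7.57 and 8.85 at 2 h, and 8.35, 9.41 and 10.69 at 4 h. Its rise of 1.43 (SE 0.327) was smallest in replicate 1 and became 1.23, and did not pass, without HET replicate 2. Falling further were Gcnt1, Scd2, Etv5, Gpr183, Lhfpl2, Cx3cr1, Sesn1 and Otulinl, the 8 largest of 110. Cx3cr1, the receptor for fractalkine and a marker of resident macrophages, stood at 12.66, 12.90 and 11.68 untreated, 11.12, 12.22 and 10.64 at 2 h, and 9.14, 10.69 and 9.35 at 4 h (−1.60, SE 0.184). It fell in each pair, although replicate 2 at 4 h still lay above replicate 3 at 2 h.

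**Figure D2:**
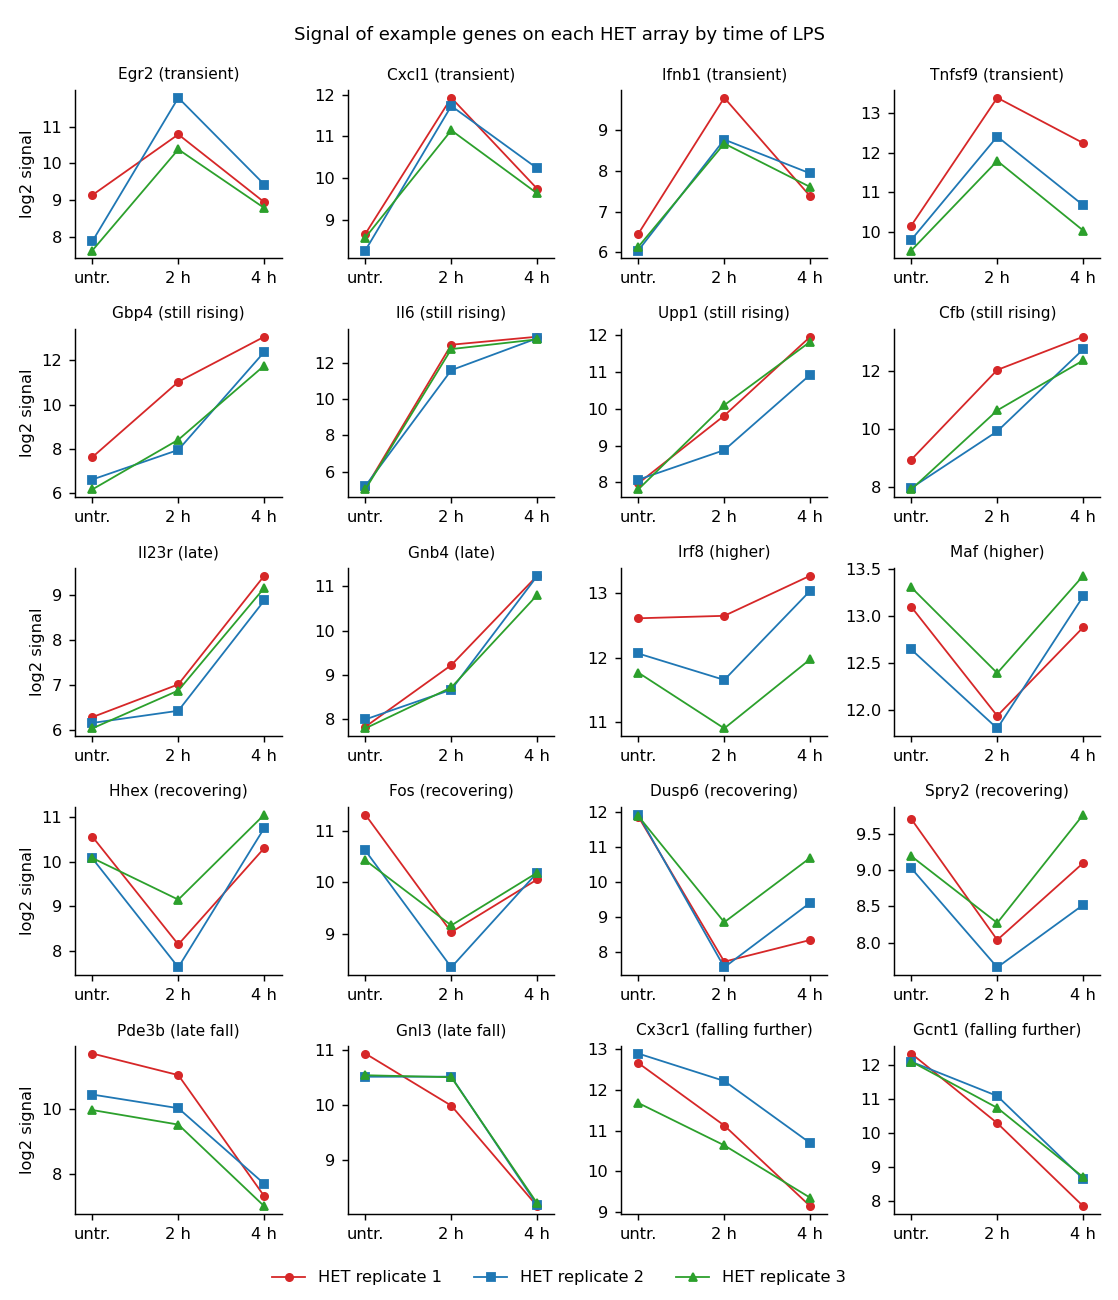
Log2 signal of 20 genes (vertical) in untreated HET cells and at 2 h and 4 h of LPS (horizontal), with 1 line for each replicate and the class of time course in the panel title (higher: rose without meeting a class). Cxcl1 and Ifnb1 peak at 2 h in all 3 replicates, Gbp4 and Cfb climb at each step, and Dusp6 ends at 8.35 to 10.69 after starting at 11.87 to 11.93.

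The promoters of 4 genes that moved in opposite ways are shown: Cxcl1 and Ifnb1 are transient, Gbp7 is still rising and Il23r is late. Each is the 250 bases before the start in RefSeq's table (GRCm38.p6), 5′ to 3′. Cxcl1 (chr5:90890995-90891244, plus strand) and Il23r (chr6:67491856-67492105, minus strand) came from the rule for promoters, while Ifnb1 (chr4:88522795-88523044, minus strand) and Gbp7 (chr3:142530086-142530335, plus strand) were chosen after their values were seen. Capitals mark matches to the NF-kB (kB) motif in Cxcl1, 71 to 61 bases before the start, and in Ifnb1, 116 to 107 bases before it. In Gbp7 they mark the interferon-stimulated response element (ISRE, which is TTTC, any 2 bases and TTTC) 53 to 44 bases before the start. None of the searched motifs was in the Il23r window. The rule also gave Rhob and Rhof (transient) and Tnfsf8 and Cysltr2 (late), whose windows held no match either and are not shown.
Cxcl1: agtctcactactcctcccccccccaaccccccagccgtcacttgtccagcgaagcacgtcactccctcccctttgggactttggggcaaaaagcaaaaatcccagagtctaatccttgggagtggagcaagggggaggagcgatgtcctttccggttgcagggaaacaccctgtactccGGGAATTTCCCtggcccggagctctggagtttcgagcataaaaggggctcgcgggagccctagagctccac
Ifnb1: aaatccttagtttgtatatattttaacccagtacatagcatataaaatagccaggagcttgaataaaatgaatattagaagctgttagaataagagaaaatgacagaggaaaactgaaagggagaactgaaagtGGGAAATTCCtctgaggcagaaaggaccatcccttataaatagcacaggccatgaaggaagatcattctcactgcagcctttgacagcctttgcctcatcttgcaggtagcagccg
Gbp7: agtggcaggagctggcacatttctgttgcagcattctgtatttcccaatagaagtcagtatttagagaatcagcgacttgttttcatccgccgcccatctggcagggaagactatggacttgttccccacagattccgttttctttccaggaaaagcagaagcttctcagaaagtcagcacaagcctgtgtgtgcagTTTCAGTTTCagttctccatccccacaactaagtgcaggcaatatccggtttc
Il23r: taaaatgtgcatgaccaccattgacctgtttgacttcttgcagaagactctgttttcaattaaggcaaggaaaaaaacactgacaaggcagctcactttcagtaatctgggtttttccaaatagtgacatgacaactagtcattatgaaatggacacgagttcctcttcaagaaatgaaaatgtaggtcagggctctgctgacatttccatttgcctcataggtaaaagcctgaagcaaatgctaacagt

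Windows of this kind were found for 15507 of the 19475 genes and were searched on both strands for kB, ISRE, AP-1 (TGANTCA), CRE (TGACGTCA), CArG, E-box (CACGTG) and SRE-1 (TCACNCCAC). The ISRE stood in 13.4% of 187 genes that rose at least 2-fold and in 0.704% of 142 that fell as much, against 3.40% of all genes with a window. Among still rising genes it stood in 15.5% of 129, among late genes in 11.5% of 278 and among transient genes in 3.77% of 53. The kB motif was in 10.1% of still rising and 9.43% of transient genes, against 5.05% of all. The CRE was in 7.55% of transient genes, which is 4 of 53, and in 0 of 129 still rising ones, against 2.34% of all. The E-box was in 12.4% of 515 late fall genes, against 8.12% of all. All 6 interferon-induced GTPases with a window, of 11 measured, held an ISRE, against 33.3% of 39 type I interferon antiviral genes. These shares describe letters in a window and had no test.

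Genes were next taken by role, from lists written from general knowledge. The shares of each list are to be read against 7.74% of all genes that rose and 11.0% that fell, and the median difference of all genes was 0.03. Counts without HET replicate 1 and without the replicate block are also given, rises before falls where both are named. Of the 210 named genes called, 83 did not pass without the block, and most are not marked singly. They include Kmt2b, Il2ra, Gpr183, Tnfsf9, Irf8, Csf3r, Cd86, Cp, Mmp25, Zbp1, Pfkfb3, Hk2, Scd2, Sesn1, Kdm5b and Kdm6b. They also include every named call of the cell cycle list. Of 37 immediate-early transcription factors, 8 (21.6%) rose and 6 (16.2%) fell, and the median was 0.04. The counts were 9 and 6 without HET replicate 1, and 4 and 4 without the block. Besides Egr2, the falls included Maff, a small Maf protein, at 9.23, 8.35 and 7.96 at 4 h, against 10.68, 9.47 and 9.34 at 2 h (−1.31, SE 0.148), and Bhlhe40, a circadian repressor (−1.15, SE 0.344). Bhlhe40 did not pass without HET replicate 2 (−0.76) or without KO replicate 1 or 3. Fos and Jun, which pair to form AP-1, went the other way after a fall at 2 h. Fos stood at 11.31, 10.62 and 10.43 untreated, 9.04, 8.36 and 9.17 at 2 h, and 10.06, 10.19 and 10.19 at 4 h (1.29, SE 0.192). Jun rose by 1.09 (SE 0.188) and likewise remained under its untreated arrays. Btg2, an antiproliferative gene, rose by 0.73 (SE 0.112) and Klf4, a factor of macrophage activation, by 0.62 (SE 0.103). Atf3, a repressor induced by LPS, did not pass at 13.58, 13.35 and 13.53 at 4 h, against 13.37, 12.99 and 13.40 at 2 h.

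The NF-kB list held subunits and inhibitors of NF-kB and other genes such as Ikbke, Traf1, Birc3, Irak2, Tnfaip2 and Sod2. It had the smallest share of changes among the lists of regulators. None of 26 rose and 2 (7.69%) fell, with a median of −0.05. When HET replicate 1 was left out, 3 rose and 4 fell and the median was 0.01, and none passed without the block. Relb, the subunit of the slower NF-kB pathway, fell by 0.55 (SE 0.105) and Nfkbie, the inhibitor IkB epsilon, by 0.35 (SE 0.113). The call of Nfkbie ended when any of HET replicates 2 and 3 or the KO replicates was left out. A list of 24 regulators around the MAP kinases held phosphatases (Dusp), Sprouty and Spred inhibitors, Gadd45 proteins and some kinases. Of these, 5 (20.8%) rose and 3 (12.5%) fell (5 and 4 without HET replicate 1, 3 and 1 without the block), with a median of −0.01 that was 0.05 without HET replicate 1. Gadd45g, a regulator of p38 and Jnk, stood at 11.08, 10.19 and 10.94 at 4 h, against 9.52, 8.63 and 9.16 at 2 h (1.64, SE 0.148), Spry2 rose by 1.13 (SE 0.184) and Dusp10 by 0.72 (SE 0.104). Spred2, an inhibitor of Ras signalling, fell at 9.82, 9.60 and 9.88 at 4 h, against 11.06, 11.46 and 10.90 at 2 h (−1.37, SE 0.147).

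Of 21 genes of messenger RNA decay 6 (28.6%) rose and 7 (33.3%) fell, both shares above those of all genes. These became 5 and 7 without HET replicate 1, and 3 and 4 without the block. Xrn1, the exonuclease that degrades decapped transcripts, stood at 11.90, 11.63 and 11.41 at 4 h, against 11.20, 10.44 and 10.65 at 2 h (0.89, SE 0.141). The decapping factors Dcp1a and Dcp2 rose by 0.67 (SE 0.142) and 0.66 (SE 0.122). Zfp36, the protein tristetraprolin that destabilises cytokine transcripts, rose by 0.42 (SE 0.101), a call that ended without HET replicate 2 (0.30) or 3 (0.44). Its relative Zfp36l1 stood at 8.61, 8.17 and 7.83 at 4 h, against 10.31, 10.08 and 9.11 at 2 h (−1.63, SE 0.213) and so moved the opposite way. Zc3h12c, an endonuclease of the Regnase family, fell by 0.53 (SE 0.131), and Zc3h12d of the same family rose by 0.65 (SE 0.143). Zc3h12c did not pass without HET replicate 1 (−0.49) or 2 (−0.51).

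Another list of 27 genes held interferon regulatory factors, Stat factors and Socs inhibitors, and also Jak1, Jak2, Tyk2, Usp18 and Batf2. Of these 27 genes 13 (48.1%) rose, Jak2, Tyk2 and Batf2 among them, and 6 (22.2%) fell, with a median of 0.37. The counts were 13 and 5 without HET replicate 1, but 4 and 4 without the block. Irf8, which directs macrophage differentiation and interferon responses, stood at 13.27, 13.04 and 11.97 at 4 h, against 12.65, 11.65 and 10.90 at 2 h (1.02, SE 0.174). The replicates kept their order at both times, with replicate 3 lowest. Irf2 rose by 1.02 (SE 0.108), Stat3 by 0.85 (SE 0.138) and Batf2, which works with Irf1, by 1.40 (SE 0.26). Irf7, the amplifier of interferon genes, rose by 0.81 (SE 0.206), and by 0.66 and 0.78, without passing, when HET replicate 2 or 3 was left out. Irf3, which starts the interferon response, fell by 0.40 (SE 0.103), Stat6, the factor of interleukin 4, by 0.56 (SE 0.115) and Irf4 by 0.71 (SE 0.162), which without HET replicate 2 was −0.46 and did not pass. Socs3, induced by 4.62 up to 2 h, had levelled off (0.05, SE 0.103, adjusted p = 0.768). Cish, which damps Stat5 signals, fell by 0.75 (SE 0.221), a call that ended without any HET replicate or without KO replicate 3.

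Among 37 genes listed as cytokines and growth factors, 13 (35.1%) rose and 3 (8.11%) fell. The counts were 13 and 4 without HET replicate 1 and 6 and 2 without the block. The list also held Flt1, a VEGF receptor, which is among the 13 that rose (0.60, SE 0.135). Tnfsf10 (TRAIL) rose most, at 12.75, 12.65 and 12.55 at 4 h, against 11.61, 9.97 and 10.99 at 2 h (1.79, SE 0.276). Il18, whose product is released by inflammasomes, rose evenly at 11.14, 11.40 and 11.07 at 4 h, against 9.88, 9.92 and 9.80 at 2 h (1.34, SE 0.09). Il33, of the interleukin 1 family, rose by 1.61 (SE 0.328), mainly in replicate 1, which stood at 9.85 at 4 h against 7.00 at 2 h, and by 0.98 without that replicate. Osm, oncostatin M, rose by 1.00 (SE 0.176) and Edn1, the vasoconstrictor endothelin 1, by 1.19 (SE 0.293). Il6 had its main step by 2 h (7.32) and stood at 13.42, 13.34 and 13.28 at 4 h, against 12.98, 11.59 and 12.74 at 2 h. Its change of 0.91 (SE 0.254) rested on replicate 2, and without that replicate it was 0.49 and did not pass, nor did it pass without KO replicate 3. Edn1 did not pass without HET replicate 2 (0.84) or 3 (1.05).

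Beside Ifnb1, the falling cytokines were Tnfsf9, at 12.25, 10.67 and 10.03 at 4 h, against 13.40, 12.41 and 11.79 at 2 h (−1.55, SE 0.248), and Lif, of the interleukin 6 family (−0.83, SE 0.136). Tnf, the tumour necrosis factor, did not pass although its arrays did not overlap, at 13.73, 13.91 and 13.86 at 4 h, against 14.13, 14.09 and 14.01 at 2 h, with a difference of −0.25 (SE 0.119, adjusted p = 0.172). Il1a, the cytokine with the tallest first step among those named (7.35), stood at 14.00, 13.84 and 13.62 at 4 h, against 13.88, 13.42 and 13.38 at 2 h and did not pass. Il23a, a subunit of interleukin 23, had means of 7.88 at 4 h and 9.59 at 2 h and an adjusted p of 0.0584, and was named after its values were seen.

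Of 25 chemokines 3 (12%) rose and 2 (8%) fell, together close to the 18.7% of all genes that changed (3 and 2 without HET replicate 1, 1 and 1 without the block). Besides Cxcl1, Cxcl14 fell, by 1.26 (SE 0.249), which was −0.76 without HET replicate 1 and did not pass without the block (adjusted p = 0.262). Cxcl9 and Cxcl11, ligands of Cxcr3 that interferons induce, rose by 0.95 (SE 0.29) and 0.60 (SE 0.171). Ccl12, a monocyte chemokine, rose at 10.30, 11.66 and 11.81 at 4 h, against 9.99, 9.71 and 10.38 at 2 h (1.23, SE 0.249), with replicate 1 moving least. Each of these 3 rises failed to pass without HET replicate 2, at 0.49 for Cxcl9, 0.54 for Cxcl11 and 0.87 for Ccl12. Cxcl9 did not pass without any single KO replicate, nor Cxcl11 without HET replicate 3. Cxcl10 stood at 14.60, 14.51 and 14.52 at 4 h, against 14.53, 14.48 and 14.50 at 2 h and Ccl3 at 14.49, 14.39 and 14.38 at 4 h, against 14.49, 14.37 and 14.33 at 2 h. These probe sets ranked 3 and 6 in mean signal among all genes, at the top of the arrays' range, where further rises can go unseen.

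Among 24 receptors of the Toll-like family and their partners 8 (33.3%) rose and 2 (8.33%) fell, or 8 and 2 without HET replicate 1 and 4 and 2 without the block. Tlr3, the receptor for double-stranded RNA, led at 12, 11.97 and 11.92 at 4 h, against 10.86, 10.13 and 10.57 at 2 h (1.44, SE 0.151), with no overlap. The nucleic acid receptors Tlr7, Tlr8 and Tlr9 rose by 0.55 (SE 0.143), 0.62 (SE 0.135) and 0.56 (SE 0.157). Tlr7 and Tlr9 did not pass without HET replicate 3 (0.58 and 0.47), nor Tlr9 without KO replicate 1 or 3. Tlr6, a partner of Tlr2 for lipopeptides, rose by 0.70 (SE 0.129). Tlr13, the mouse receptor for bacterial ribosomal RNA, fell at 10.64, 11.55 and 11.91 at 4 h, against 12.29, 12.70 and 12.63 at 2 h (−1.17, SE 0.18). Ticam2, the adaptor that links Tlr4 to TRIF, fell by 0.85 (SE 0.136). Cd14 stood at 13.62, 13.41 and 13.21 at 4 h, against 13.91, 13.57 and 13.50 at 2 h, lower in each pair, and did not pass (−0.25, SE 0.089, adjusted p = 0.0716).

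Receptors for cytokines, chemokines and lipid mediators moved in both directions: of 46, 13 (28.3%) rose and 10 (21.7%) fell. The counts were 13 and 12 without HET replicate 1, and 5 and 5 without the block. Il13ra1, shared by interleukins 4 and 13, stood at 12.98, 12.09 and 11.93 at 4 h, against 11.46, 10.14 and 10.50 at 2 h (1.63, SE 0.174). Il15ra, which presents interleukin 15, rose by 1.49 (SE 0.227), Csf3r, the receptor for G-CSF, by 1.25 (SE 0.147) and Il18rap, a subunit of the interleukin 18 receptor, by 1.04 (SE 0.146). Ifngr1, the ligand-binding chain of the interferon gamma receptor, fell evenly at 11.36, 11.64 and 11.43 at 4 h, against 12.66, 12.64 and 12.44 at 2 h (−1.10, SE 0.089). S1pr1, the receptor for sphingosine 1-phosphate that guides exit from tissue, fell by 1.40 (SE 0.248), and Ptger2, a receptor for prostaglandin E2, by 1.24 (SE 0.124). Ptger2 had risen by 1.15 up to 2 h and is among the transient genes. Gpr183, a receptor for oxysterols, fell at 8.88, 8.84 and 8.25 at 4 h, against 10.73, 11.81 and 8.61 at 2 h and so moved unequally between replicates (−1.73 (SE 0.366), and −1.10 without HET replicate 2).

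Of 51 effector and late LPS genes 18 (35.3%) rose and 3 (5.88%) fell, with a median of 0.38. Leaving out HET replicate 1 gave 18 and 2, and leaving out the block 6 and 1. Upp1, the uridine phosphorylase, rose evenly at 11.96, 10.93 and 11.82 at 4 h, against 9.81, 8.88 and 10.10 at 2 h (1.97, SE 0.221). Cfb, factor B of the alternative complement pathway, stood at 13.19, 12.76 and 12.37 at 4 h, against 12.04, 9.91 and 10.64 at 2 h (1.91, SE 0.217). Cp, the copper-binding ferroxidase ceruloplasmin, rose by 1.80 (SE 0.369), Mmp25, a membrane-bound metalloprotease, by 1.94 (SE 0.384) and Cd86, a costimulatory ligand for T cells, by 1.57 (SE 0.129). In Cp and Cfb replicate 2 began lowest at 2 h and moved most, and without it Cp rose by 1.18. Hdc, which makes histamine, rose by 1.57 (SE 0.272). The falls were Plau, Cd83 and Clec5a. Cd83, a surface marker of activated antigen-presenting cells, stood at 12.68, 12.43 and 11.06 at 4 h, against 12.98, 13.35 and 12.16 at 2 h (−0.78, SE 0.185), and without HET replicate 2 (−0.70) or 3 (−0.61) it did not pass. Clec5a did not pass without HET replicate 1 (−0.29). Acod1, which makes itaconate, did not pass at 14.54, 14.46 and 14.38 at 4 h, against 14.45, 14.32 and 14.39 at 2 h, rank 5 of all genes in mean signal.

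**Figure D3:**
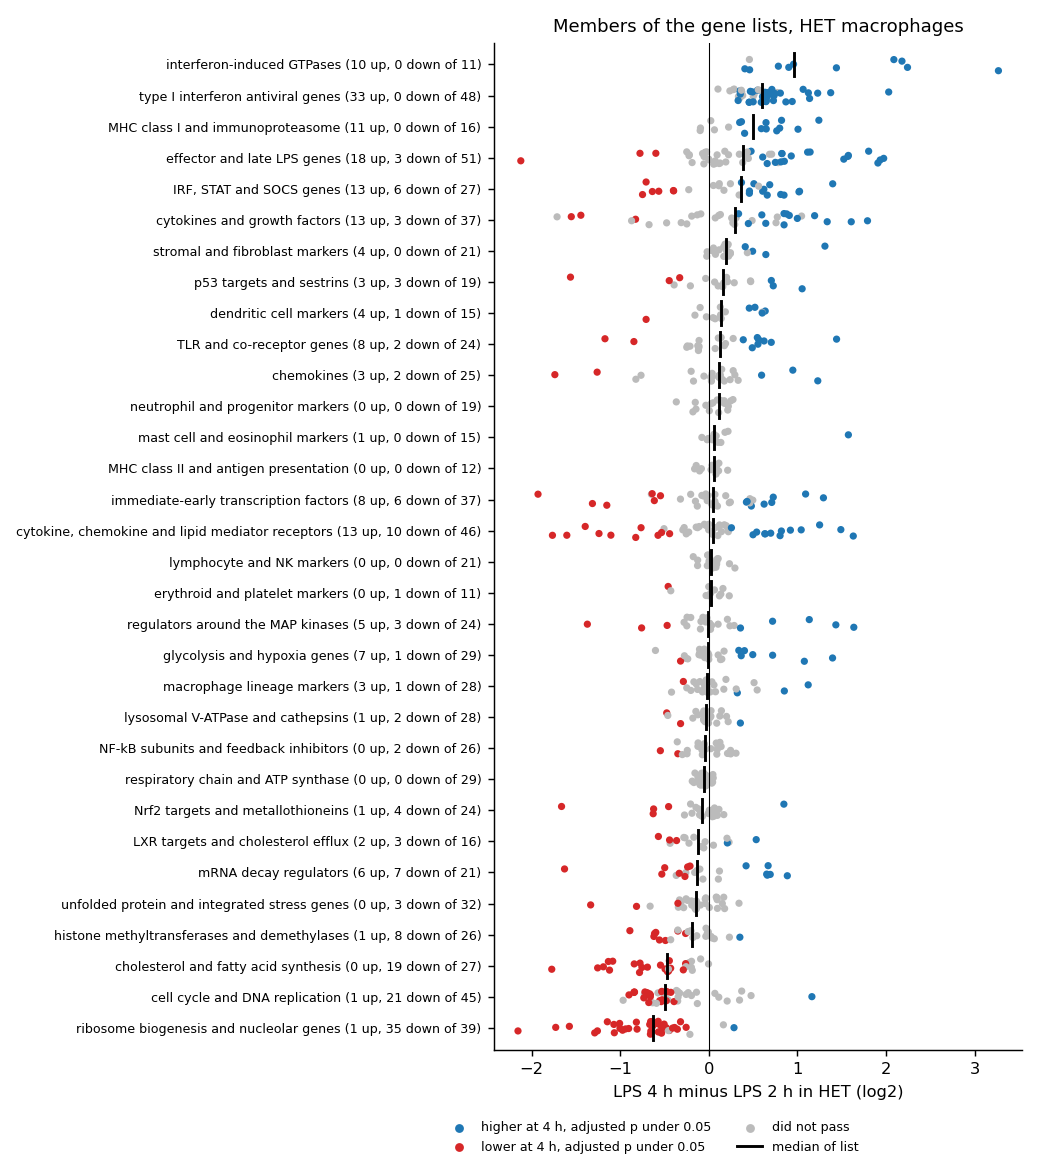
Log2 difference, 4 h minus 2 h in HET cells (horizontal), of each measured member of 32 gene lists (rows), coloured by whether it passed, with a bar at the median of the list and the counts higher and lower in the row label. All 11 interferon-induced GTPases and all 48 type I interferon antiviral genes lie above 0, and no cholesterol and fatty acid synthesis gene does.

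The interferon-induced lists moved upward as whole lists. Of 48 type I interferon antiviral genes 33 rose and none fell, with a median of 0.60, and all 48 differences were above 0. Of 11 interferon-induced GTPases 10 rose and none fell, with a median of 0.96. The share that rose among all genes was 7.74%. Without HET replicate 1 the counts were 35 of 48 and 11 of 11, and without the replicate block 11 of 48 and 6 of 11. The medians differed between pairs, at 0.36, 0.88 and 0.55 for the antiviral genes and 0.64, 1.45 and 0.94 for the GTPases in replicates 1, 2 and 3. Replicate 1 had the higher starting point: its GTPase median at 2 h was 11.69, against 8.98 and 10.28.

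Slfn4, of the Schlafen family, led the antiviral genes at 13.45, 12.60 and 12.83 at 4 h, against 11.87, 9.80 and 11.12 at 2 h (2.03, SE 0.219). Herc6, the mouse ligase for the ubiquitin-like protein Isg15, stood at 13.09, 12.80 and 12.61 at 4 h, against 12.31, 11.22 and 11.55 at 2 h (1.14, SE 0.152). Zbp1, a sensor of Z-form nucleic acids that can start cell death, rose by 1.06 (SE 0.171), and Pml, the organiser of nuclear bodies, by 1.23 (SE 0.187). Iigp1, which attacks the vacuoles of parasites, stood at 12.78, 12.24 and 12.08 at 4 h, against 11.69, 8.87 and 10.28 at 2 h (2.09, SE 0.331). Gbp7, whose promoter is printed above, stood at 12.99, 12.94 and 13.13 at 4 h, against 12.51, 11.50 and 12.17 at 2 h (0.96, SE 0.168), so that the replicates converged at 4 h. Ifit1, Rsad2 and Usp18, classical interferon-stimulated genes, had signals of 13.95 to 14.36 at 4 h, against 13.09 to 14.13 at 2 h, did not overlap within each gene and did not pass. They ranked 24, 23 and 82 in mean signal among all genes, near the top of the arrays' range, where further rises can go unseen. Irgm1 did not pass either, at 13.53, 13.51 and 13.48 at 4 h, against 13.51, 12.58 and 13.06 at 2 h.

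Antigen presentation divided by class. Of 16 genes of MHC class I presentation and the immunoproteasome 11 (68.8%) rose and none fell (11 and 0 without HET replicate 1, 9 and 0 without the block), with a median of 0.50 and close values in the pairs (0.37, 0.54 and 0.48). Nlrc5, the transactivator of MHC class I genes, stood at 12.81, 12.36 and 12.27 at 4 h, against 12.07, 10.71 and 10.93 at 2 h (1.24, SE 0.169), and another probe set of it rose by 1.63 (SE 0.189). The immunoproteasome subunits Psmb9 and Psmb10 rose by 0.77 (SE 0.126) and 0.82 (SE 0.093), Tapbpl, a peptide editor, by 1.01 (SE 0.133), and Tap2, a subunit of the peptide transporter, by 0.80 (SE 0.1). B2m, the light chain, stood at 14.03, 13.84 and 13.90 at 4 h, against 13.97, 13.86 and 13.87 at 2 h and did not pass. None of 12 MHC class II presentation genes passed, with or without HET replicate 1 or the block, and their median was 0.05.

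**Figure D4:**
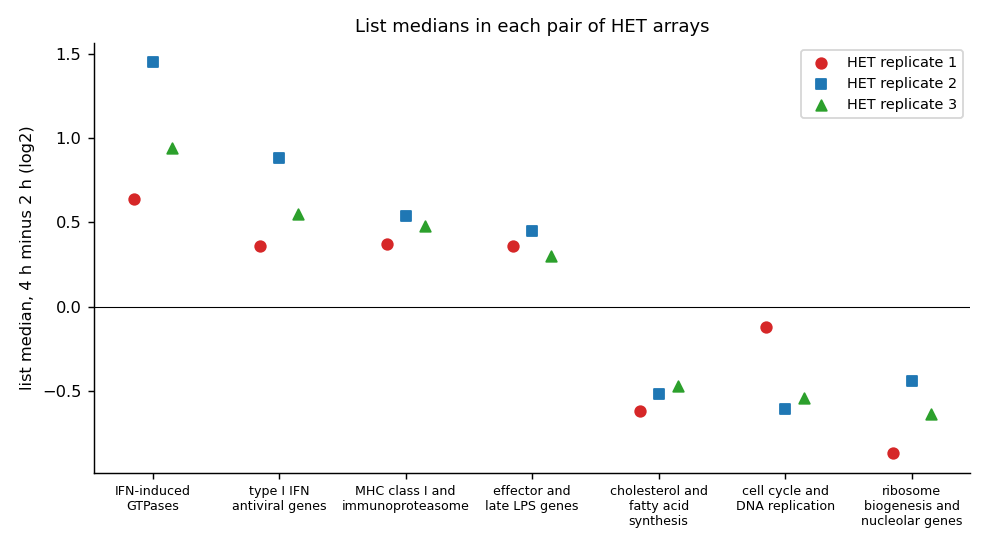
Median difference, 4 h minus 2 h (vertical, log2), of the members of 7 gene lists (horizontal) within each replicate pair of HET cultures. In all 3 pairs the 4 lists on the left lie above 0 and the 3 on the right below it, and replicate 1 has the smallest cell cycle median (−0.12).

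Sterol and fatty acid synthesis fell as a list. Of 27 genes 19 fell and none rose, with a median of −0.47, against 11.0% lower among all genes. The pair medians were −0.62, −0.52 and −0.47. Without HET replicate 1, 18 fell, and without the replicate block 11 did. Fasn, the fatty acid synthase, stood at 8.78, 10.04 and 9.72 at 4 h, against 10.51, 11.11 and 10.69 at 2 h (−1.25, SE 0.197). Sqle, the squalene epoxidase, fell by 1.12 (SE 0.157), Msmo1, a later sterol oxidase, by 1.19 (SE 0.187), and Hmgcs1, which makes the substrate of HMG-CoA reductase, by 1.08 (SE 0.206). Stard4, a carrier of cholesterol, fell at 7.53, 7.84 and 8.29 at 4 h, against 8.66, 9.26 and 9.15 at 2 h (−1.13, SE 0.166). Scd2, a desaturase, fell by 1.77 (SE 0.354) in replicates that differed widely, at 7.21, 8.84 and 9.89 at 4 h, against 8.99, 10.65 and 11.60 at 2 h. Srebf2, the master factor of sterol genes, did not pass at 11.78, 12.04 and 11.65 at 4 h, against 12.34, 12.15 and 11.75 at 2 h. Genes of cholesterol efflux and Liver X receptor targets gave 2 (12.5%) rises and 3 (18.8%) falls among 16, 0 and 2 without HET replicate 1 and 0 and 1 without the block.

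Of 29 glycolysis and hypoxia genes 7 (24.1%) rose and 1 (3.45%) fell, with a median of −0.01. Rises and falls were 6 and 2 without HET replicate 1 and 3 and 0 without the block. Pfkfb3, whose product activates phosphofructokinase, rose by 1.40 (SE 0.227), with 13.19, 12.63 and 11.89 at 4 h, against 12.44, 11.11 and 9.97 at 2 h. Pdk3, a kinase that inhibits pyruvate dehydrogenase, was nearly the same in all replicates at 11.18, 11.17 and 11.18 at 4 h, against 10.04, 10.15 and 10.10 at 2 h (1.08, SE 0.128). The hexokinases Hk2 and Hk3 rose by 0.50 (SE 0.103) and 0.72 (SE 0.094), but Hk2 did not pass without the block (adjusted p = 0.531). Hif1a did not pass at 13.42, 12.76 and 12.76 at 4 h, against 13.28, 12.88 and 12.85 at 2 h. None of 29 respiratory chain and ATP synthase genes passed, with or without HET replicate 1 or the block. Their differences lay between −0.19 and 0.05. Among 28 lysosomal genes 1 (3.57%) rose and 2 (7.14%) fell, both shares below those of all genes. The counts were 1 and 2 without HET replicate 1, and 1 and 0 without the block.

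Ribosome biogenesis and nucleolar genes had the highest share of falls among the 32 lists. Of 39 measured, 35 fell and 1 rose, with a median of −0.63 and pair medians of −0.87, −0.44 and −0.64. Without HET replicate 1, 32 fell, and without the replicate block 31. Besides Gnl3, Rrs1, an assembly factor of the large subunit, stood at 9.51, 9.34 and 9.52 untreated, 10.15, 10.50 and 10.48 at 2 h, and 8.89, 8.84 and 8.23 at 4 h (−1.73, SE 0.16). Rrs1 was thus higher at 2 h and lower at 4 h than in untreated cells. Tsr1, of the small subunit, stood at 8.48, 8.72 and 8.47 at 4 h, against 10.06, 10.22 and 10.11 at 2 h (−1.57, SE 0.135). Polr1b, a core subunit of RNA polymerase I, fell by 1.29 (SE 0.234), Dkc1, the pseudouridine synthase dyskerin, by 1.26 (SE 0.24), and Nop58, a core protein of box C/D particles, by 1.15 (SE 0.118). Dkc1 and Polr1b fell most in replicate 1, by 2.00 and 1.76. Wdr43 was the 1 that rose, by 0.28 (SE 0.089), and without HET replicate 2 (0.21) or 3 (0.28) or any KO replicate it did not pass.

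Cell cycle and DNA replication genes depended on the replicates. Of 45, 21 fell and 1 rose, with a median of −0.49. The pair medians were −0.12, −0.61 and −0.54, and replicate 1 started with signals of 8.43 in the median, against 10.93 and 10.92. Without HET replicate 1, 36 fell, and without the replicate block none did. Ccna2, cyclin A2, stood at 7.43, 11.76 and 11.82 at 4 h, against 8.35, 12.64 and 12.54 at 2 h (−0.84, SE 0.093), a similar step in each pair from unlike levels. Bub1b, of the spindle checkpoint, stood at 7.36, 9.48 and 9.30 at 4 h, against 7.48, 10.76 and 10.60 at 2 h, flat in replicate 1 (−0.90, SE 0.223). In replicate 1 its signal lay near the lower quartile (6.99), where array signals are compressed, so that a fall could go unseen. Cdk2 fell by 0.84 (SE 0.121) and Mcm3, of the replicative helicase, by 0.72 (SE 0.19). Ccnd2, cyclin D2, was the 1 that rose, at 13.43, 13.05 and 12.28 at 4 h, against 12.52, 11.70 and 11.04 at 2 h (1.16, SE 0.182). Bub1b and Mcm3 did not pass without HET replicate 2 (−0.71 and −0.67), nor Bub1b without HET replicate 3 (−0.70).

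The stress lists differed in how many members passed. Among 32 genes of the unfolded protein and integrated stress responses none rose and 3 (9.38%) fell, as without HET replicate 1. Without the block none rose and 1 fell. The falls were led by Herpud1, of degradation from the endoplasmic reticulum, at 10.09, 10.77 and 10.76 at 4 h, against 11.51, 12.32 and 11.79 at 2 h (−1.33, SE 0.145). Of 24 Nrf2 targets and metallothioneins 1 (4.17%) rose and 4 (16.7%) fell (1 and 3 without HET replicate 1, 1 and 1 without the block). Gclc, the catalytic subunit of glutathione synthesis, fell at 8.96, 9.46 and 10.52 at 4 h, against 10.95, 11.34 and 11.64 at 2 h (−1.66, SE 0.215), and Slc30a1, a zinc exporter, rose by 0.85 (SE 0.081). Of 19 p53 targets and sestrins 3 (15.8%) rose and 3 (15.8%) fell (3 and 4 without HET replicate 1, 2 and 0 without the block). Sesn1 fell by 1.56 (SE 0.287) while Sesn3 rose by 1.05 (SE 0.137), both of the sestrin family that restrains mTORC1.

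A list of 26 genes held Kmt2b and other methyltransferases of histone H3 lysine 4, their partners, and demethylases of lysine 4 and of other lysines. Of these 1 (3.85%) rose and 8 (30.8%) fell (0 and 8 without HET replicate 1, 1 and 2 without the block), with a median of −0.19. Kdm6b, a demethylase of lysine 27 that LPS induces, had risen by 2.42 up to 2 h and fell at 10.78, 10.62 and 10.03 at 4 h, against 11.53, 11.71 and 10.86 at 2 h (−0.89, SE 0.183). Wdr5, a shared subunit of the methyltransferase complexes, fell by 0.60 (SE 0.129) and Kdm5b, a demethylase, by 0.61 (SE 0.14). Kdm5a was the 1 that rose (0.35, SE 0.084), a call that ended without HET replicate 1 (0.24). Kmt2a, a close relative of Kmt2b, did not pass at 11.33, 11.21 and 11.02 at 4 h, against 11.18, 11.49 and 10.79 at 2 h.

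Marker lists checked the labelled cell type. The 28 macrophage markers had a median signal of 12.64 (range 6.70 to 14.17) over the 6 arrays, against 8.14 over all genes. Of these, 3 rose and 1 fell (5 and 0 without HET replicate 1). The other lists below had lower medians, but their ranges overlap with that of the macrophage markers. Csf1r, the receptor for the growth factor Csf1, stood at 13.87, 13.65 and 13.56 at 4 h, against 13.94, 13.87 and 13.65 at 2 h and Lyz2 at 14.30, 14.05 and 14.13 at 4 h, against 14.25, 14.11 and 14.18 at 2 h, and neither passed. Maf, a macrophage transcription factor, rose by 1.12 (SE 0.139) after a fall of 0.96 up to 2 h, and Fcgr1, the high-affinity Fc receptor, by 0.85 (SE 0.104). None of 19 neutrophil and progenitor markers (median signal 8.45, range 5.89 to 11.41) and none of 21 lymphocyte markers (7.33, 5.07 to 8.99) passed. Among 11 erythroid and platelet markers (7.86, 5.26 to 12.19) 1 fell, which was Pf4 (−0.46, and −0.34 without HET replicate 3, where it did not pass). Of 15 mast cell and eosinophil markers (6.53, 4.73 to 10.73) 1 rose, which was Hdc. Of 21 stromal and fibroblast markers, which hold some of endothelium (7.63, 5.14 to 10.05), 4 (19%) rose and none fell. Their median difference was 0.20, with 19 differences above 0. Kdr, a VEGF receptor, led at 10.51, 10.04 and 9.79 at 4 h, against 9.20, 8.52 and 8.69 at 2 h (1.31, SE 0.164). Of 15 dendritic cell markers (7.62, 6.78 to 12.43) 4 (26.7%) rose and 1 (6.67%) fell, with a median difference of 0.13. Itgax did not pass at 8.78, 8.54 and 7.29 at 4 h, against 9.23, 8.45 and 7.40 at 2 h. The rises and falls without HET replicate 1 were 3 and 0 of the stromal, 3 and 1 of the dendritic cell, 1 and 0 of the neutrophil, 0 and 1 of the lymphocyte, 0 and 1 of the erythroid and 1 and 0 of the mast cell markers. Without the block they were 2 and 0 of the macrophage and of the stromal markers, and 1 and 0 of the dendritic cell and of the mast cell markers. No member of the other marker lists passed without the block. The part of these markers in the changes above was not tested.

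In KO cells the same interval gave 963 rises (4.94%) and 1194 falls (6.13%). The difference between the genotypes was tested gene by gene, HET minus KO, with arrays that the genotypes do not share. It passed for 2 genes (0.0103%), both with a larger rise in HET cells, while 1651 (8.48%) had an unadjusted p under 0.05. Angpt1, a ligand of the vascular receptor Tie2, rose by 1.35, 1.69 and 1.96 in the HET pairs and by 0.40, 0.06 and 0.18 in the KO pairs, a difference of 1.45 (SE 0.167, adjusted p = 0.015). Its HET arrays stood at 6.67, 6.86 and 7.25 at 4 h, against 5.32, 5.17 and 5.29 at 2 h. All of them but replicate 3 at 4 h lay under the lower quartile of signal (6.99). Cysltr2, a receptor for cysteinyl leukotrienes, rose by 1.75, 1.83 and 2.03 in the HET pairs and by 0.65, 0.60 and 0.96 in the KO pairs, a difference of 1.13 (SE 0.136, adjusted p = 0.015). It stood at 7.51, 7.19 and 7.41 at 4 h, against 5.76, 5.37 and 5.38 at 2 h in HET arrays, with a mean of 5.59 at 4 h and 4.85 at 2 h in KO arrays. Both calls ended when any KO replicate was left out, with differences of 1.38 to 1.55 for Angpt1 and 1.06 to 1.24 for Cysltr2.

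The next genes by p did not pass. They were Mfsd9 (0.77), Gbp7 (−1.46) and Tbc1d2b (−0.84), each with an adjusted p of 0.113. Gbp7 rose by 0.96 in HET cells and by 2.41 in KO cells, and its mean at 2 h was 12.06 in HET cells and 10.28 in KO cells. Il6 rose by 0.91 in HET cells and 2.98 in KO cells (difference −2.07, adjusted p = 0.124), and its mean at 2 h was 12.44 in HET cells and 9.50 in KO cells. Ifnb1 fell by 1.44 in HET cells and stood at 6.97 at 4 h and 6.88 at 2 h in KO cells (difference −1.54, adjusted p = 0.178). Both KO means lay under the lower quartile of signal (6.99), where a fall could go unseen. Gnb4 rose by 2.22 in HET cells and 0.90 in KO cells (1.32, adjusted p = 0.163).

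Directions were mostly shared. Of the 1508 genes that rose in HET cells, 1388 (92.0%) were above 0 in KO cells, and of the 2142 that fell, 2090 (97.6%) were below 0, against 69.3% of all genes with one sign in both genotypes. Of the same genes, 782 of the rises and 862 of the falls passed in the same direction in KO cells. Among those with at least a 2-fold change the counts were 242 of 242 and 173 of 174. Across all 19475 genes, which are not independent, the changes of both genotypes had a correlation of 0.79. Medians of the lists stood side by side at 0.60 in HET and 1.28 in KO cells for antiviral genes and at 0.96 and 2.01 for interferon-induced GTPases. They were −0.63 and −0.26 for ribosome biogenesis, −0.47 and −0.41 for sterol and fatty acid synthesis, and −0.49 and −0.43 for cell cycle genes. These list medians had no test between genotypes.

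**Figure D5:**
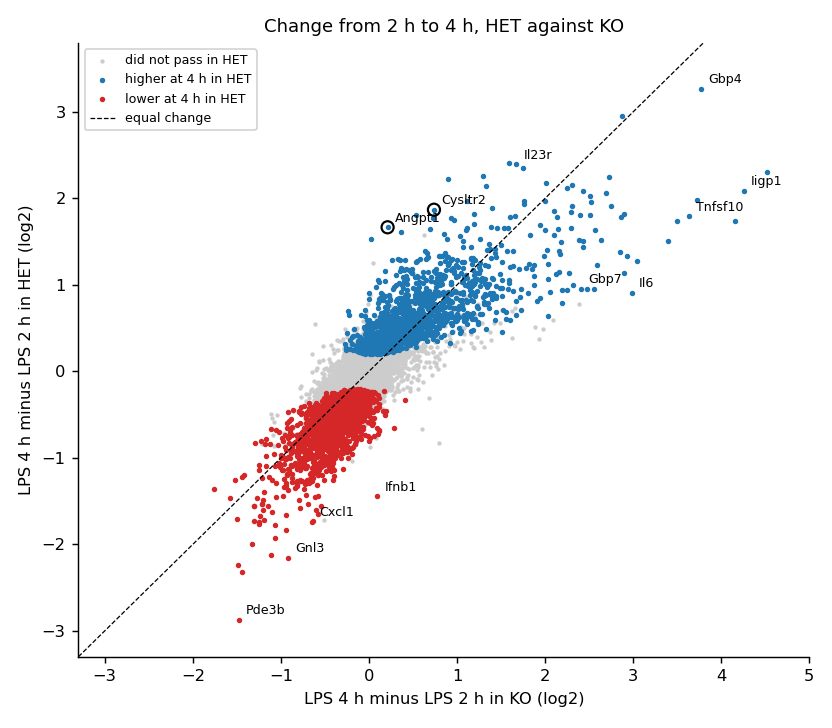
Change from 2 h to 4 h in HET cells (vertical, log2) against that in KO cells (horizontal, log2) for 19475 genes, coloured by the call in HET cells, with a dashed line of equal change. Most called genes have the same direction in both, Angpt1 and Cysltr2 (circled) lie above the line, and Gbp7, Iigp1 and Il6 below it.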

How the data were processed

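Gene expression was measured on 18 Affymetrix arrays, of which the 6 of HET cells at 4 h and 2 h of LPS carry the comparison. The deposited values are log2 signals per probe set, made with RMA in Partek 6.5 per the submitters' processing notes, and were used as they stand. RMA as usually run gives all arrays nearly one distribution, so that a change in total RNA per cell cannot be seen. Arrays have no read depth, and precision is limited by their number. Array medians were 8.05 to 8.13, and no arrays held identical values.

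Of 25344 probe sets, 2677 had no gene and 1530 several genes in the platform's annotation, and these were left out. From the other 21137, the probe set with the highest mean signal stood for each of 19475 genes, 915 of which had more than 1. Promoter windows were matched to RefSeq by symbol.

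All 18 arrays were fitted together with limma 3.58.1 in R 4.3.3, with 6 group means and a fixed block for replicate number within genotype, and p was adjusted over all genes of a contrast by the method of Benjamini and Hochberg. The code was tested on simulated data. The block follows the pairing by number that defines the comparison. The labels do not say that equal numbers share a culture. Deviations from the group means correlated across genes between 4 h and 2 h for equal numbers (r = 0.796, 0.668 and 0.753), and gave −0.687 to 0.287 for unequal ones.

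Genes were named by rule: Wbp7 and Cd14, the 15 largest changes in each direction among genes whose pairs moved one way and whose arrays did not overlap, up to 6 called members per direction and 2 others of each of 32 lists, up to 8 genes of each class of time course, and the 5 smallest p for the difference between genotypes. The lists, classes and contrasts were chosen with earlier results of these data known. The alternatives were another block or none, fewer arrays, other scaling, a filter on dim genes, other handling of probe sets and of variance, a minimum fold, other steps for the classes, and each replicate left out. List counts without HET replicate 1 were added after that replicate was seen to stand apart. Figures were drawn with matplotlib 3.10.9.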

Additional observations from a re-analysis of the deposited data

Results flagged for a closer look

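The change from 2 h to 4 h differed between the genotypes, by a test of the difference itself, for 2 of 19475 genes. For Angpt1 the difference, HET minus KO, was 1.45 (SE 0.167), with a rise in 3 of 3 HET pairs (1.35 to 1.96) larger than in every KO pair (0.06 to 0.40). Over the alternatives its adjusted p lay between 0.00104 and 0.437, and it passed without the replicate block (0.0192) but not when any KO replicate was left out. For Cysltr2 the difference was 1.13 (SE 0.136), with 3 of 3 HET pairs (1.75 to 2.03) above every KO pair (0.60 to 0.96). Its adjusted p lay between 0.00621 and 0.437, and it did not pass without the replicate block (0.308), without HET replicate 3 or without any KO replicate. Both genes lay below the lower quartile of array signal at 2 h, and Angpt1 also in HET replicates 1 and 2 at 4 h, so that the sizes of these differences are uncertain. No group holds more than 3 arrays, so single arrays were not tested for lying far from the rest.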

How the results depend on the processing

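None of the 210 named genes called reversed its direction under the alternatives run. Medians near 0 did change sign: that of all genes was 0.0327, and −0.0402 with dim genes left out, and those of the NF-kB and MAP kinase lists did so without HET replicate 1. Of 3650 genes called, 1594 passed without the replicate block (all of them shared), 1943 with the 9 HET arrays only (1938 shared), and 416 had at least a 2-fold change. Leaving out single replicates gave 2200 (without HET replicate 2) to 3870 (without HET replicate 1, 3008 shared). Transient genes (68) numbered 37 without the replicate block, 20 at 2-fold, 45 with the first step taken from KO arrays, 132 with a step of 0.5, and 45 to 73 without single replicates. Still rising genes (166) numbered 79, 74, 67 and 379 under the first 4 of these settings, and 148 to 158 without single replicates. The genotype difference (2 genes) was called for 1 gene without the replicate block, 4 where arrays were quantile-normalized again, 0 without dim genes (both genes are dim), 22 with array weights, whose estimation stopped before convergence, and 0 to 34 without single replicates (0 without any KO replicate, 34 without HET replicate 2). The causes were not tested. Of the 210 named genes called, 127 passed without the block and 151 whenever any single replicate was left out. The remaining settings (random block, 6 arrays, centring, mean of probe sets, robust trend) kept the count of genes called within 1.5 times.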
